A study of Mus musculus with 5 samples.

Results

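The miRNAs of the imprinted Dlk1-Dio3 domain were followed through differentiation of C2C12 cells. This line of mouse muscle precursors, the myoblasts, forms multinucleate myotubes once serum is withdrawn. Members were chosen by name: every array probe with a mouse miRNA name of 34 listed numbers, in any letter, arm or asterisk form. The rule took 42 of 343 mouse-named probes (1488 distinct probes in all), and used no measured value. The probes stood for 36 annotated miRNA genes, all on chromosome 12. Total RNA from 5 stages was compared on 2-colour miRNA arrays. Proliferating cells were harvested at 70 to 80% confluence and confluent cells at 100%, and differentiating cells had spent 1, 2 or 4 days in 2% horse serum. Each stage had 4 arrays, for cultures the labels call biological replicates, and the other channel of every array held a pool of the 4 proliferating replicates. No genotype or agent other than serum differed between the stages. The cells are 1 cultured line, so the series holds no fibre type, nerve or tissue context.

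In this domain the paternal chromosome expresses the protein-coding genes Dlk1, Rtl1 and Dio3, and the maternal chromosome expresses long non-coding RNAs, among them Meg3, Rian and Mirg, together with the miRNAs. The miRNAs are thought to be cut from long maternal transcripts, so members that lie side by side can share a precursor RNA. In muscle the domain is known for high miRNA expression in satellite cells, the stem cells of adult muscle, and for regulation by the transcription factor MEF2A.

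In the GRCm38.p6 annotation the members ran from Mir337 to Mir410 on the plus strand of chromosome 12, chr12:109585789-109743795, a span of 158007 bases. Dlk1 lay upstream at chr12:109452485-109463336 and Dio3 downstream at chr12:110279230-110281097. The members fell into 3 stretches. The first held 9 probes between Mir337 and Mir136, which lie antisense to Rtl1. The second held the 2 probes of Mir341 and Mir370, inside the Rian gene. The third held 31 probes from Mir379 to Mir410 and began 90723 bases after Mir370; its last genes lie inside Mirg.

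Mature sequences from RefSeq (GRCm38.p6 table) were matched for 39 of the 42 probes, and the 39 seeds, bases 2 to 8 of each miRNA, were all different, so no seed groups formed. The older array names carry no arm, so the arm was taken from the later naming of each miRNA; the probes' own sequences were not used here. The 3 members that passed a test are shown first, then 5 detected neighbours that did not, written 5′ to 3′ with the seed in capitals.
miR-382-5p: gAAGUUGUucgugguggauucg
miR-494-3p: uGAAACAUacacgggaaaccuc
miR-376b-5p: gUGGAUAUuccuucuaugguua
miR-134-5p: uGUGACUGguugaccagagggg
miR-329-3p: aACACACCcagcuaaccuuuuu
miR-370-3p: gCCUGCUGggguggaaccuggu
miR-341-3p: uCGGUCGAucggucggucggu
miR-127-3p: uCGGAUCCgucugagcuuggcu
The first is encoded at chr12:109733781-109733802, the second at chr12:109715367-109715388 and the third, named miR-376b* on the array, at chr12:109723471-109723492.

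Values are log2 ratios of a stage to the proliferating pool, with the dye effect removed. The sources disagree on which channel of an array held the stage: the sample labels name Cy5 throughout, while the design text has 2 replicates of each stage in each dye, and no file settles it array by array. It was read from the sign of each array's correlation with the authors' processed column for the same stage, over 161 detected mouse probes outside the cluster. The correlation was 0.21 to 0.83 on 8 arrays (stage in red) and -0.88 to -0.42 on the other 8 (stage in green), with 2 of each per stage. The direction of that column is itself not stated, so "rose" and "fell" are likely directions, on the basis that miR-206 and miR-133, known to rise in differentiating muscle, stand above 0 in it. If the column runs the other way, every sign below turns. The proliferating column followed none of its 4 arrays (r 0.0294 to 0.0807), so these arrays are given as red over green, dye effect removed, with no direction.

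Under this reading the muscle markers rose after the serum change; the direction of miR-206 and miR-133 is its basis and is no check of it. miR-206, a muscle-specific miRNA, stood at 3.17 at day 1, 3.77 at day 2 and 4.16 at day 4. miR-133a/miR-133b stood at 2.45, 3.57 and 3.87. Of 5 tested skeletal muscle markers 4 rose at day 4, with miR-1 and miR-499 as the other two, and miR-486 stood at 0.09 with adjusted p = 0.634. Of 5 tested probes for smooth muscle and fibroblast markers only miR-143 passed, rising by 1.28 at day 4, and miR-150, the 1 tested blood marker, rose by 0.64; whether other cells had a part in the cluster's values was not tested. Neither tested neuronal marker passed at day 4, miR-124a at -0.02 and miR-129-5p at 0.04. Median spot intensities were 122.5 to 324 in red and 96 to 346 in green. Between 107 and 230 mouse probes were detected per channel.

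Most of the cluster was dim in these cells. A probe counted as detected where its signal passed the percentile 95 of that array's blank spots (empty or negative control) in that channel. On at least 3 of 4 arrays, 12 of the 42 members were detected in proliferating cells, 8 in confluent cells, 9 at day 1, 10 at day 2 and 8 at day 4. Proliferating arrays were counted in either channel, since both held proliferating RNA, which favours that stage. As shares these are 28.6%, 19.05%, 21.4%, 23.8% and 19.05%, beside 47.8%, 42.6%, 41.7%, 41.4% and 38.5% of all mouse probes. A bulk array cannot tell fewer cells with a miRNA from less of it per cell.

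Members seen on all 20 arrays came from the Rian stretch and the third stretch. They were miR-370, miR-329, miR-494 and miR-382, which were also detected in the pool on 16 of 16 arrays. miR-341 was detected on 19 arrays, miR-433-5p on 18, miR-487b on 16 and miR-127 on 14. miR-134 and miR-381 were detected on 11 each and both arms of miR-434 on 8. miR-379 was detected on 7, miR-495 on 5 and miR-376b* on 4.

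These 15 members were tested, having been detected on at least 3 of 4 arrays of at least 1 stage (35.7% of the 42, beside 52.5% of all mouse probes). miR-379, miR-495, miR-381 and miR-376b* passed that filter through the proliferating arrays alone. Some tested members had no detected array in a stage, so their signal in that stage was background. These were miR-379 and miR-495 in confluent cells, miR-495 and miR-434-5p at day 4, and miR-376b* in confluent cells and at days 1 and 2. There the pool was background too, except on confluent array 1 for miR-379 and confluent array 4 for miR-495.

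The remaining 27 members were not tested. Of these, 21 were detected in the channel of a stage on at least 1 array. miR-433-3p was seen on 7 of 20, miR-323 on 6, and miR-136, miR-299 and miR-412 on 5 each. miR-376c and miR-543 were seen on 4 and miR-300, miR-369-3p and miR-496 on 3. miR-154, miR-376a*, miR-380-3p, miR-380-5p, miR-411, miR-485-3p and miR-539 were seen on 2, and miR-337, miR-376b, miR-409 and miR-540 on 1. The last 6, miR-376a, miR-377, miR-410, miR-431, miR-485-5p and miR-541, were never detected in the channel of a stage. In the pool, however, miR-377 was detected on 6 of 16 arrays and miR-541 on 2, and the other 4 were detected in neither channel of any array. Among the untested members seen in a stage, miR-433-3p was detected in the pool on 9 of 16. A probe undetected in a channel leaves the level there below what that array could show, and does not show that the miRNA was absent.

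**Figure D1:**
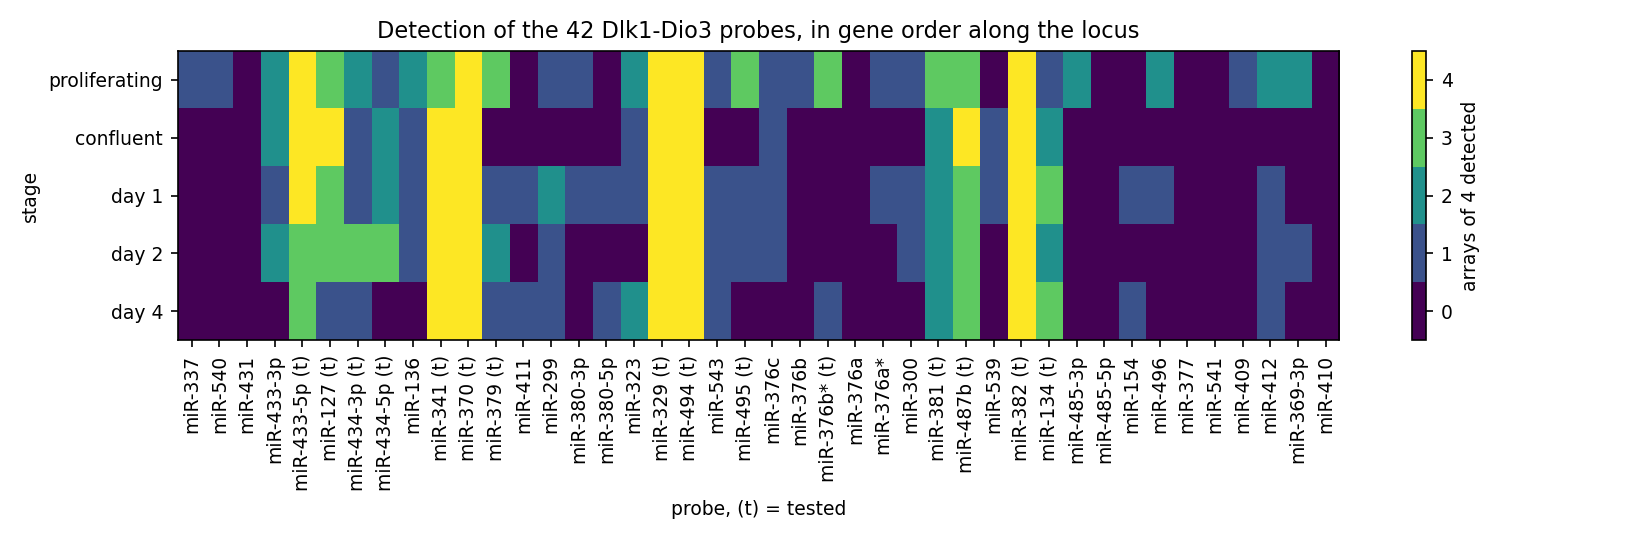
Detection of the 42 cluster probes in gene order (columns) at the 5 stages (rows); colour gives on how many of 4 arrays a probe was detected, and (t) marks the 15 tested. miR-370, miR-329, miR-494 and miR-382 are at 4 of 4 in every row, while most columns are at 0 to 2.

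The comparison of each stage with the proliferating pool asks which members change as myoblasts leave the cell cycle and fuse. At day 4, 3 of the 15 tested members passed the test (limma, adjusted p under 0.05 over 180 mouse probes): miR-382 and miR-494, which fell, and miR-376b*, whose signal was not above background in the pool on any array. Over all 180 tested probes 51 passed, 28.3%, with 15.6% up and 12.8% down. At day 2, 1 member passed, miR-382, downward, beside 20% of all probes (12.8% up and 7.22% down). At day 1, 2 members passed, miR-382 and miR-494, both downward, beside 15% of all probes (10% up and 5% down). In either direction together, the 3, 1 and 2 members of 15 at days 4, 2 and 1 were fewer than or close to the share over all probes. The 2 downward calls at day 1 were more than the 5% over all probes, on a count of 2.

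The changes of the members were small. At day 4 the values of the members other than miR-376b* ran from -0.41 to 0.12 and none reached 2-fold, while 12 of the 180 tested probes did. The median over the 15 members was 0.03 at day 4, beside 0.02 over all tested probes. It was -0.09 at day 2 beside -0.00, and -0.04 at day 1 beside 0.00. The median size of change, whatever its sign, was 0.075 over members and 0.150 over all tested probes at day 4, 0.124 and 0.161 at day 2, and 0.082 and 0.144 at day 1. The day 4 design was also simulated, over the 180 probes together. Of changes of 0.3 on the log2 scale 36.2% were recovered, with 77.2% of those of 0.5 and 99.2% of those of 1. These are not rates for single members, whose SE at day 4 ran from 0.09 (miR-382) to 0.21 (miR-487b). Most members changed by less than 0.3.

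**Figure D2:**
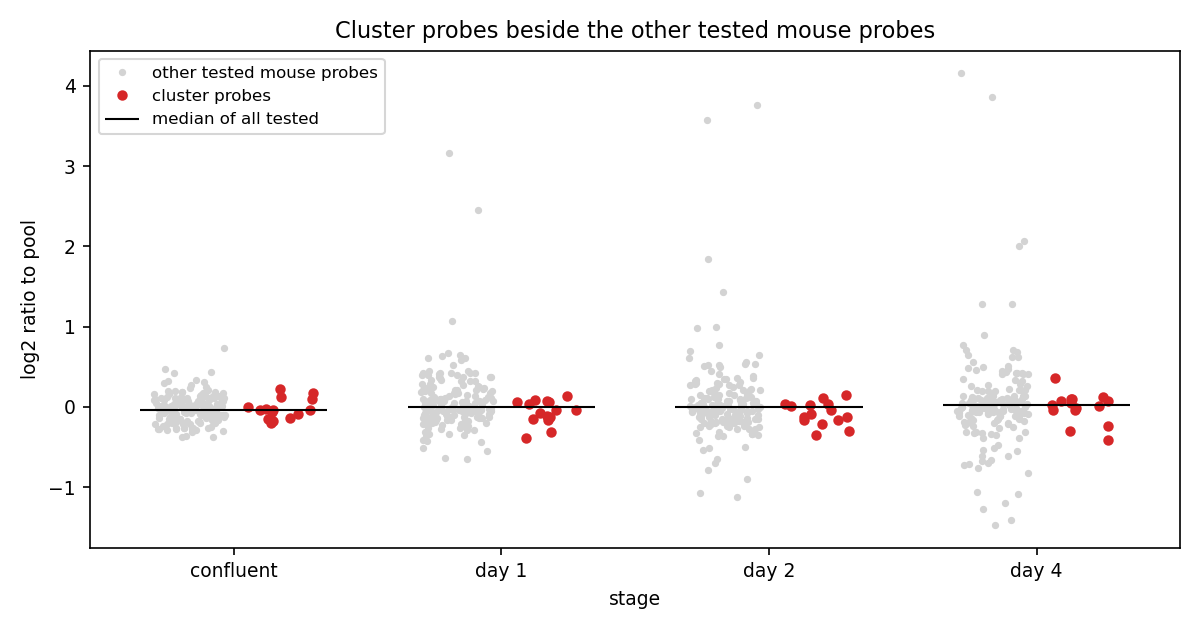
Log2 ratio to the proliferating pool (vertical axis) of the 15 tested cluster probes (red) and the other tested mouse probes (grey) at 4 stages, with the median of all 180 as a line. At day 4 the cluster probes lie between -0.41 and 0.12 except miR-376b*, the highest red point, which is not above background in the pool, and the grey points above 3 are miR-206 and miR-133a/miR-133b.

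miR-382 was the member whose decline passed at all 3 stages after the serum change. The 4 proliferating arrays gave 0.14, 0.12, 0.09 and -0.02 as red over green. The confluent arrays gave -0.14, -0.05, 0.03 and 0.02, on both sides of 0. Both sets stayed within 0.14 of 0 in size.

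After the serum change every array of miR-382 lay below 0. The values were -0.06, -0.37, -0.50 and -0.31 at day 1, -0.20, -0.46, -0.40 and -0.33 at day 2, and -0.34, -0.61, -0.46 and -0.23 at day 4. The day 2 and day 4 arrays did not overlap the confluent or proliferating ones, whichever way the latter are turned. The first day 1 array, at -0.06, lay among the confluent values. These values depend on the dye effect of miR-382, 0.40 on the log2 scale and as large as the decline, which the fit estimates from the inferred channels and removes. As measured, 3 of the 12 arrays after the serum change lay above 0: 0.34 and 0.09 at day 1 and 0.06 at day 4.

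By the fit miR-382 fell by 0.31 at day 1 (SE 0.09, SD 0.19, n = 4; limma adjusted p = 0.0230). It fell by 0.35 at day 2 (SD 0.11, limma adjusted p = 0.00682). At day 4 it fell by 0.41, 1.33-fold, with a 95% interval of -0.60 to -0.22 (SD 0.16, n = 4; limma adjusted p = 0.00109). In confluent cells it stood at -0.03 (limma adjusted p = 0.910). The day 1 call rested on few arrays: it was lost without day 1 array 2 (-0.28, limma adjusted p = 0.136), array 3 (-0.24, limma adjusted p = 0.116) or array 4 (-0.31, limma adjusted p = 0.0668). The day 2 and day 4 calls were kept on leaving out each of the 20 arrays in turn. With the proliferating arrays as the control in place of the pool, which can be turned in 6 ways, the call was lost under 1 way at day 4, 4 at day 2 and all 6 at day 1. Without a dye term no stage passed (limma adjusted p = 0.587, 0.439 and 0.266 at days 1, 2 and 4). The day 1 and day 2 calls were also lost with median centring (limma adjusted p = 0.161 and 0.144) and with only the 4 arrays of the stage (limma adjusted p = 0.142 and 0.152). With no filter on dim probes the day 1 call was lost too (limma adjusted p = 0.0612).

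The steps between stages of miR-382 did not pass. From confluent to day 1 it differed by -0.27, with a 95% interval of -0.54 to -0.01 (unadjusted p = 0.0428, limma adjusted p = 0.321). From day 1 to day 4 it differed by -0.10 (-0.37 to 0.16). So the ratio of day 1 was not separable from that of day 4, and the interval also holds a further decline of 0.37.

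With the dye effect removed, miR-382 moved opposite to miR-206 on 12 of 12 arrays of days 1 to 4, and as measured on 9 of 12. As miR-206 lay above 0 on all 12, both counts restate the sign of miR-382 and add no separate reading. The second count does not depend on which channel held the stage; the first does, through the dye effect. In the authors' deposited table miR-382 stood at -0.15 in confluent cells, -0.44 at day 1, -0.48 at day 2 and -0.52 at day 4. The channels of the stages were read from that table, so its values are no separate check. The repeat spots of miR-382 were close, with a median difference of 0.0825 between them, beside 0.384 for miR-379, the largest among tested members.

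miR-494, known in C2C12 cells for targeting the mitochondrial transcription factor Tfam, was the other member that fell. Its 4 proliferating arrays spread from -0.31 to 0.24 (-0.01, -0.31, 0.24 and -0.13). The confluent arrays gave -0.40, -0.13, -0.01 and -0.15. Day 1 gave -0.25, -0.77, -0.27 and -0.26, day 2 gave -0.21, -0.06, -0.19 and -0.22, and day 4 gave -0.44, -0.22, -0.20 and -0.34.

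All 16 turned arrays of miR-494 lay below 0, the confluent ones included. The day 1 arrays lay wholly below the day 2 arrays, and every other pair of these stages overlapped. All 4 stages also overlapped the spread of the proliferating arrays. One day 1 array, at -0.77, stood far from the other 3.

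By the fit miR-494 fell by 0.39 at day 1 (SE 0.10, SD 0.26, n = 4; limma adjusted p = 0.0111). Without the array at -0.77 the day 1 value was -0.25 and no longer passed (limma adjusted p = 0.211). At day 2 it stood at -0.17 (limma adjusted p = 0.306). At day 4 it fell by 0.30, 1.23-fold, with a 95% interval of -0.51 to -0.08 (SD 0.11, n = 4; limma adjusted p = 0.0330). That call was lost without day 4 array 1 (-0.25, limma adjusted p = 0.182), array 2 (-0.33, limma adjusted p = 0.0516) or array 4 (-0.28, limma adjusted p = 0.120).

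With the proliferating arrays in place of the pool, miR-494 passed at day 4 under 1 of the 6 ways to turn those arrays, with values from -0.47 to -0.13. Under print-tip loess, which normalises each printed block of spots separately, neither call held, at -0.15 at day 1 and -0.17 at day 4 (limma adjusted p = 0.276 and 0.234). Median centring also ended both calls (limma adjusted p = 0.315 and 0.689), as did leaving out the dye term (0.0570 and 0.0977) and fitting only the 4 arrays of the stage (0.0592 and 0.103). In confluent cells miR-494 stood at -0.17 (limma adjusted p = 0.552). It moved opposite to miR-206 on 12 of 12 arrays, both as measured and with its dye effect of 0.02 removed, which restates its sign on them. The authors' deposited table, again no separate check, gave miR-494 -0.07 in confluent cells, -0.39 at day 1, -0.11 at day 2 and -0.26 at day 4.

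miR-376b* was the only tested member that passed upward, but its ratios set signals near background beside each other. It was detected on 1 of 4 arrays at day 4 and 3 of 4 proliferating arrays, and in the pool on 0 of 16, so neither a fold nor a fitted difference is given and its call says nothing about a rise. The array values that follow are a description only. The day 4 arrays gave 0.80, 0.31, 0.27 and 0.06, all above 0, and the highest was the detected one. Day 2 gave -0.18, -0.56, -0.09 and -0.39, all below 0, and did not overlap day 4. As measured, with the dye effect left in, these 2 stages overlapped.

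Day 1 gave 0.06, -0.09, 0.04 and -0.15, and confluent cells 0.09, 0.41, -0.04 and 0.44. The proliferating arrays gave -0.54, -0.15, -0.23 and 0.17, a spread as wide as the difference between stages.

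The day 4 call of miR-376b* (limma adjusted p = 0.0382) turned direction with mean in place of median spot intensity (limma adjusted p = 0.934). It was also lost without day 4 array 1 (limma adjusted p = 0.398), array 2 (limma adjusted p = 0.0736) or array 3 (limma adjusted p = 0.0621). The authors' deposited table gave 0.33 in confluent cells, 0.08 at day 1, -0.00 at day 2 and 0.17 at day 4, so its highest stage was the confluent one. Of 12 arrays it moved with miR-206 on 6 and against it on 6. Its partner arm, miR-376b, was detected on 1 of 20 arrays and was not tested.

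**Figure D3:**
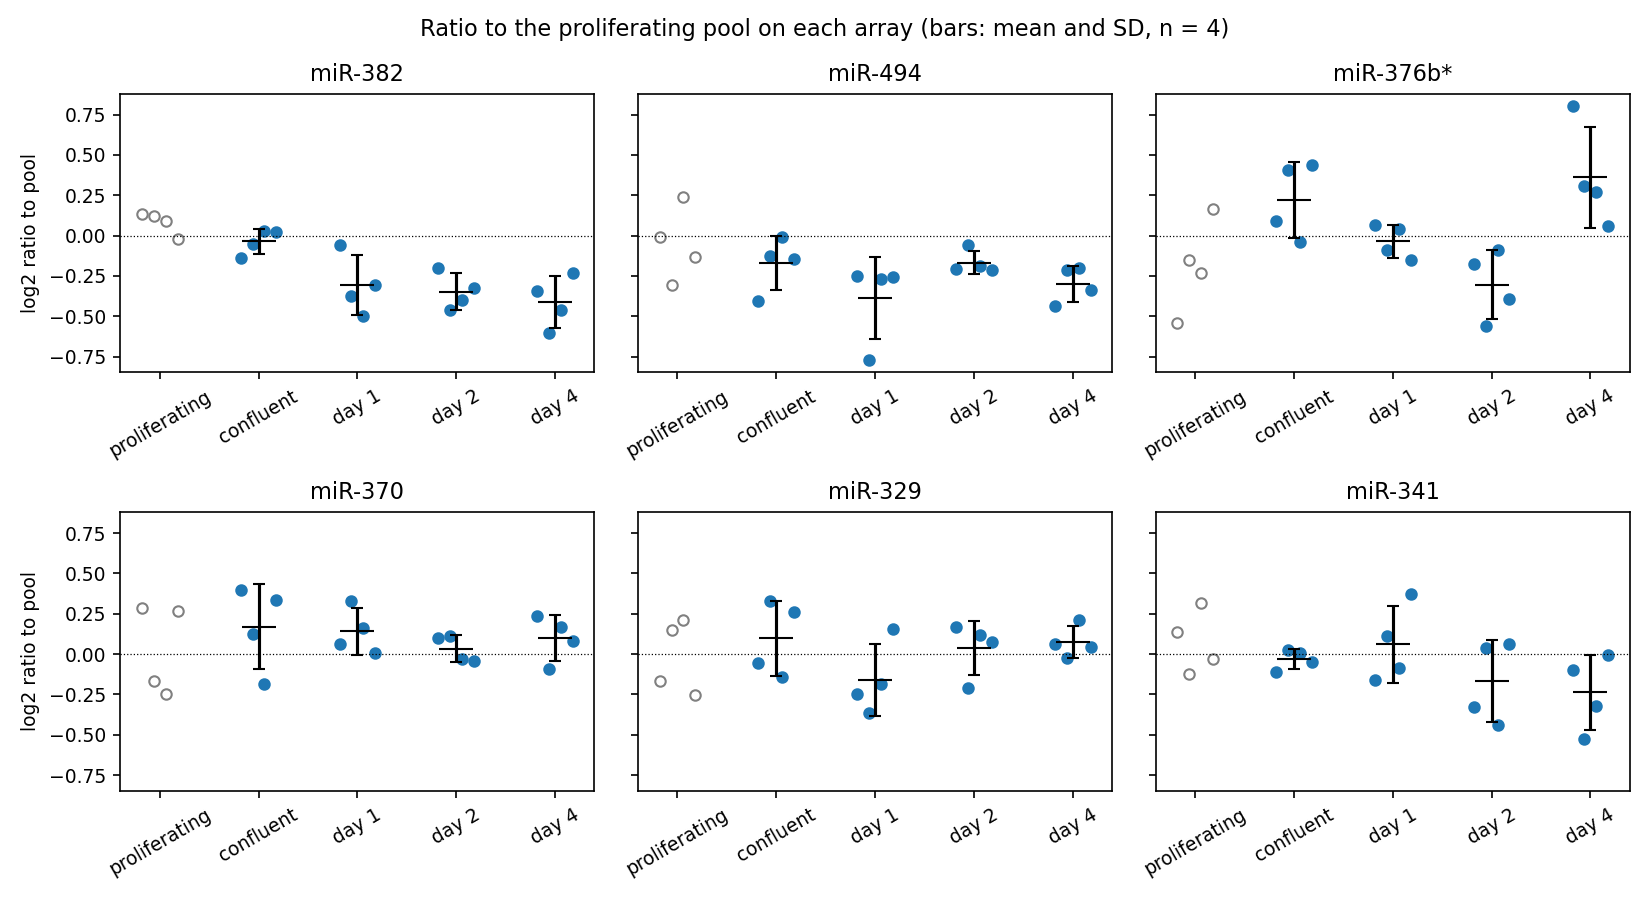
Log2 ratio to the proliferating pool on each array (points; vertical axis) at the 5 stages for the 3 members that passed and the 3 brightest that did not, with the mean and SD of 4 arrays as bars. Open points are proliferating arrays, given as red over green; miR-382 lies between -0.61 and -0.20 at days 2 and 4, and miR-370, miR-329 and miR-341 straddle 0 at most stages.

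The Rtl1 antisense stretch showed no change that passed. Its 4 tested probes had a median of 0.02 at day 4, -0.11 at day 2 and -0.03 at day 1. miR-127, which is fully complementary to Rtl1 and is known to silence it in mouse placenta, gave 0.12, -0.01, -0.03 and -0.25 at day 4, on both sides of 0. At day 2 its arrays gave -0.07, -0.30, -0.23 and -0.26, all below 0, and the fitted value was -0.21 (limma adjusted p = 0.210).

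miR-127 was detected on 3 of 4 arrays at day 2 and 1 of 4 at day 4. Its fitted value was 0.07 at day 1 and -0.04 at day 4, with a 95% interval of -0.27 to 0.19 at day 4. miR-433-5p stood at -0.12, -0.09 and 0.03 at days 1, 2 and 4, none of them passing. The arms of miR-434 come from 1 hairpin. miR-434-3p stood at 0.06, -0.04 and 0.01 and miR-434-5p at -0.16, -0.13 and 0.12 over the same days, and none of these passed either.

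In the Rian stretch, both probes were bright and neither passed. miR-370, known in human liver cells for targeting the fatty acid oxidation gene CPT1A, gave 0.23, -0.10, 0.17 and 0.08 at day 4. Its fitted values were 0.14 at day 1, 0.03 at day 2 and 0.10 at day 4, with a 95% interval of -0.13 to 0.32 at day 4. All 4 day 1 arrays lay above 0 (0.06, 0.33, 0.16 and 0.00), 3 of them inside the proliferating spread of -0.25 to 0.29.

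miR-341 gave -0.10, -0.53, -0.32 and -0.00 at day 4, all 4 below 0. The fitted value was -0.24, with a 95% interval of -0.47 to -0.01 (SD 0.23, n = 4; unadjusted p = 0.0451, limma adjusted p = 0.140). At day 1 it stood at 0.06 and at day 2 at -0.17. Its proliferating arrays spread from -0.12 to 0.32. Under print-tip loess the day 4 value was -0.28 and passed (limma adjusted p = 0.0222).

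In the third stretch 9 of 31 probes were tested, and all 3 members that passed lie there. These 9 are most of the 15 tested members, and miR-376b*, near background, is among the 3, so the count gives no reading of location. The 3 members do not lie side by side. Mir494 is 1740 bases downstream of Mir329, and Mir134 is 292 bases downstream of Mir382. Both these tested neighbours of the declining miRNAs did not pass. The nearest members on the other side, miR-543 and miR-539, were not tested. Mir679, outside the rule, lies between Mir494 and Mir543, and miR-679 was not tested either.

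miR-134, known in rodent neurons for limiting dendritic spine size through Limk1, gave 0.05, 0.16, 0.23 and -0.06 at day 4, against -0.34, -0.61, -0.46 and -0.23 for miR-382 on the same arrays. With the dye effects removed the 2 neighbours did not overlap at that stage. As measured they overlapped: miR-134 gave 0.21, 0.32, 0.07 and -0.22, and miR-382 gave 0.06, -0.20, -0.86 and -0.63. The fitted value of miR-134 was 0.10 at day 4 (95% interval -0.11 to 0.30), 0.02 at day 2 and 0.04 at day 1. It was detected on 3 of 4 arrays at day 4 and 2 of 4 at day 2. The difference between the neighbours was not tested.

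miR-329, which with miR-134 and miR-381 is known to promote dendrite growth in rat neurons, gave 0.06, -0.02, 0.21 and 0.04 at day 4. With the dye effects removed all 4 lay above the miR-494 values of the same stage. As measured the 2 miRNAs overlapped, with miR-329 down to -0.23 and miR-494 up to -0.18. The day 1 arrays of miR-329 gave -0.25, -0.37, -0.18 and 0.15, and overlapped those of miR-494. The fitted values were -0.16 at day 1, 0.04 at day 2 and 0.07 at day 4, with a 95% interval of -0.15 to 0.30 at day 4.

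miR-379, the first member of this stretch, stood at -0.04 at day 1, 0.11 at day 2 and 0.04 at day 4. The authors' deposited table gave it -0.27 in confluent cells, -0.11 at day 1, -0.08 at day 2 and -0.34 at day 4, against the sign of the fit at days 2 and 4. miR-381 stood at -0.08, -0.12 and 0.07 and miR-495 at 0.08, 0.01 and -0.04 over the same days. miR-487b stood at -0.11, 0.15 and -0.01, and varied most, with an SD of 0.60 at day 2, where 1 array gave 1.02 and the lowest -0.33. None of these values passed. Over the 12 members that did not pass at day 4, the lowest 95% limit was -0.47, for miR-341, and the highest 0.43, for miR-487b. Each interval bounds the change of its own member only, and some were narrower than this span, such as -0.27 to 0.19 for miR-127.

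**Figure D4:**
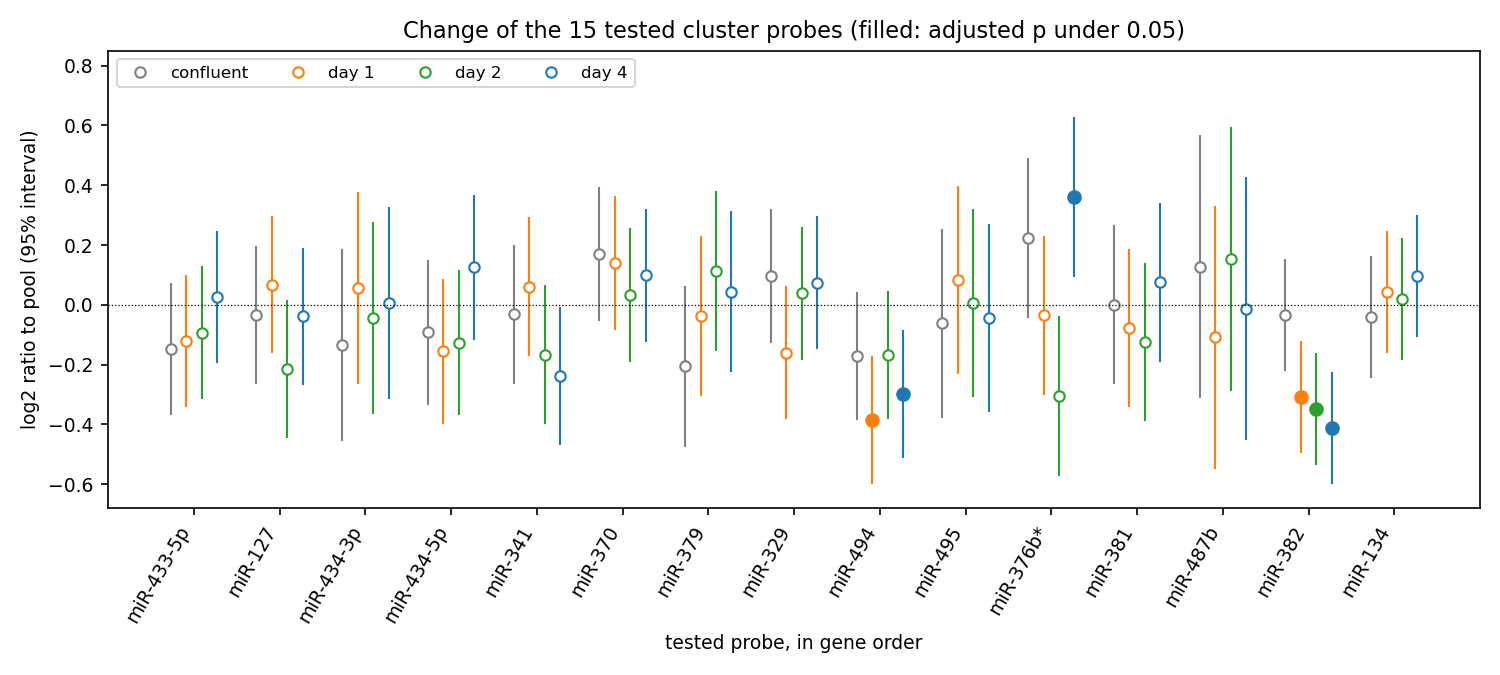
Fitted log2 ratio to the proliferating pool (vertical axis, bars are 95% intervals) of the 15 tested probes in gene order at 4 stages; filled points have a limma adjusted p under 0.05. The filled points are miR-382 at days 1, 2 and 4, miR-494 at days 1 and 4, and miR-376b* at day 4, whose signal is not above background in the pool.

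The confluent stage shows the members before the serum change. No member passed there by limma, and 0 had an unadjusted p under 0.05. Of all 180 probes 1 passed, 0.556%, and 17 had an unadjusted p under 0.05. Member values ran from -0.21 for miR-379, a probe not detected on any confluent array, to 0.17 for miR-370, leaving out miR-376b*, also undetected there. The median was -0.03 over members and -0.03 over all tested probes. Under the 2 other ways to pair the confluent arrays 0 members passed.

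The later steps, which share the pool, moved no member past the threshold either. From confluent to day 1, 0 members passed beside 3.89% of all probes. There 1 of 15 members (miR-382) and 25 of all 180 probes had an unadjusted p under 0.05. From day 1 to day 2, 0 passed beside 0.556%, with 0 members and 15 of all probes at an unadjusted p under 0.05. From day 2 to day 4, 0 passed beside 0%, with 1 member (miR-376b*) and 13 of all probes at an unadjusted p under 0.05. From day 1 to day 4, 0 passed beside 8.89% (3.33% up and 5.56% down). For that step 1 member (miR-376b*) and 38 of all probes had an unadjusted p under 0.05.

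Probes for other species gave little more on these numbers. Of 11 without a mouse name, only hsa-miR-299-3p was tested, detected on 17 of 20 arrays. It stood at -0.12 at day 4, -0.05 at day 2 and 0.05 at day 1. In confluent cells it stood at -0.44 (unadjusted p = 0.00751, limma adjusted p = 0.374 over the tested probes for other species, mouse probes left out). The rat probe for the other arm of miR-382, rno-miR-382*, was detected on 2 of 20 arrays and was not tested, so the decline of miR-382 has no reading from its partner arm. miR-679, encoded in the same stretch but outside the rule, was detected on 2 of 20 arrays and was not tested.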

How the data were processed

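The authors deposited, per the file headers, red and green spot intensity values (means, medians and a morphological background) and a log2 ratio of background-subtracted medians for each of 20 two-colour arrays of 3072 spots, and a table of processed log2 values with 1 column per stage. The deposited log2 ratios were not centred. The scanner, image software and the table's scale and direction are not given in the sources used here. The table's column medians ran from -0.0160 to 0.00432, so its values were centred near 0, and its slope on the arrays' own means was 0.615 to 0.793 over the 4 turned stages.

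Median intensities were corrected with normexp (offset 50) and normalised within arrays by loess, with control spots at weight 0, in limma 3.58.1 (R 4.3.3). Repeat spots, 2 for most probes, were averaged. Detection required 1 spot above the percentile 95 of 114 empty and negative-control spots. A probe was tested where it was detected on 3 of 4 arrays of a stage, and 180 mouse probes were. The limma fit held a dye term and 1 effect each for confluent, day 1, day 2 and day 4 over all 20 arrays (15 residual and 7.32 prior degrees of freedom), with Benjamini-Hochberg adjustment. Labels and design text disagree on the dyes: the sample labels put the pool in Cy3 throughout, the design has 2 replicates per dye. The proliferating arrays inform the dye term only. The ratio to the pool is tested against 0, which leaves out the spread of the proliferating cultures, and the number of arrays limits precision.

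Members and gene lists were chosen with earlier results of these data known. Every member is accounted for, those passing are given array by array, and beside them the 3 brightest that did not pass. Sequences and coordinates came from RefSeq tables (GRCm38.p6). The fit was tested on simulated data, where 4.43% of calls were false at day 4. In all, 41 alternatives were run.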

Additional observations from a re-analysis of the deposited data

Results flagged for a closer look

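In 3 of 75 sets of 4 arrays, 1 array stood far from the other 3 by Dixon's test, which chance alone does for about 1 set in 20. The miR-494 value of day 1 array 2 was -0.7686, and the day 1 call of miR-494 was lost without it. The miR-134 value of proliferating array 1 was 0.4379, on the only proliferating array where miR-134 was detected. The miR-434-3p value of proliferating array 3 was 1.02, on an array where it was not detected. Both proliferating values are red over green with no direction, and no cause was tested.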

How the results depend on the processing

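The decline of miR-382 at day 4 kept its direction under all 41 alternatives and its call under 39 (-0.48 to -0.34), but not without a dye term (limma adjusted p = 0.266) or under the sixth way to turn proliferating arrays as controls (limma adjusted p = 0.0571). Its day 2 call was kept under 34 and its day 1 call under 28. The calls of miR-494 were kept under 27 at day 4 and 31 at day 1. Of the 41 alternatives, 20 left out 1 array each, mostly an array of another stage, so the kept counts overstate stability. Such leave-outs made up 3 of the 14 losses of miR-494 at day 4 and 1 of 10 at day 1. The call of miR-376b* was kept under 22 of 40 and turned to -0.0226 with mean foreground. The cause of these losses was not tested. Members called at day 4 (3) became 1 under normexp offset 0, median centring, no filter on dim probes (42 members), only the 4 arrays of the stage, and ways 1, 3, 4 and 5, and 0 without a dye term and under way 6. The call of miR-376b* was also lost with offset 100, the deposited log2 ratio, mean foreground and repeat spots kept apart. Print-tip loess lost miR-494 and miR-376b* and gained miR-341. At day 2 (1) the members called became 2 under offset 0, and 0 under median centring, only the 4 arrays, no dye term and ways 2, 3, 5 and 6. At day 1 (2) they became 0 under median centring, only the 4 arrays, no dye term and ways 1, 3, 4, 5 and 6, and 1 under print-tip loess and way 2. With no filter on dim probes the day 1 call of miR-382 was lost as well. From day 2 to day 4 (0) offset 0 gave 1, miR-376b*. Leaving out 1 array gave 1 to 3 members at day 4, 1 to 1 at day 2 and 0 to 2 at day 1. Of 114 values that did not pass, 3 passed under an alternative. The dim probes limit the rest: 27 of 42 members gave no test. Robust variance moderation, the confluent to day 1 contrast and the authors' values were added after seeing the data. Leaving out arrays turned by muscle miRNAs was not run, since 0 arrays rest on them. No paired analysis was possible because the labels number no arrays.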
